A study of Mus musculus with 15 samples.

Results

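Genes for the receptors that place B cells within lymphoid tissue were followed on 10 probe sets, all those that the array annotation assigns to 9 genes: Ccr6, Ccr7, Cxcr3, Cxcr4, Cxcr5, Gpr183 (formerly Ebi2), Cnr2, S1pr1 and S1pr4. Gpr183 had 2 probe sets and the other genes 1 each, of 45037 probe sets besides the controls and of 18193 genes with a probe set of their own. The genes were taken by name, from a list chosen with earlier results of these data known. Their counts beside the shares of all genes are therefore a description. All 9 passed the filter on low signals and were among the 13160 genes tested: 7 lay at or above the array median on all 15 arrays, S1pr1 on 12 and Cnr2 on 11.

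Affymetrix mouse arrays were hybridised with total RNA of B cells from AM-14 mice, which carry a transgenic B cell receptor that binds self IgG, so the controls carried this receptor as well. The 5 groups had 3 arrays each. The control cells were kept in media, and the other groups received F(ab')2 fragments of goat antibody to mouse IgM, which crosslink the B cell receptor (anti-IgM), the phosphorothioate oligodeoxynucleotide CpG 1826, a ligand of TLR9 (CpG), the chromatin immune complex PL2-3 (PL2-3), or both of the first agents (anti-IgM+CpG). The titles of this last group name both agents, whereas its treatment field says none. It was placed by its titles. Not given in the sources used here are the age of the mice, the amount of each agent, how long it was applied and how pure the cells were. Whether the replicates were separate cultures or separate animals is not in the labels. The p-values therefore reflect only the scatter among these arrays, which may be technical.

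Signals are MAS5 values on a linear scale. They compare 1 probe set across arrays, not genes with each other. Changes are differences of log2(signal + 75.2) ± SE, fitted with limma on 3 arrays of each group. The words rose and fell are kept for changes whose limma adjusted p was below 0.05, the values in brackets after the changes. With 3 arrays against 3, no exact two-sided permutation test can give a p below 0.1. The 4 comparisons against media share the media arrays. Bulk RNA cannot tell fewer cells of a type from less RNA per cell.

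The arrays differed in measured ways that touch the results. Array medians were 468, 514 and 412 in media (replicates 1 to 3), each the highest of its replicate number. With anti-IgM+CpG they were 303, 266 and 277. Xist, the RNA of the inactive X chromosome, gave 321 to 589 on the anti-IgM+CpG arrays and 4250 to 15500 on the other 12. The 5'/3' signal ratio of the beta-actin controls was 0.105 to 0.193 on the anti-IgM+CpG arrays, against 0.335 to 0.747 on the 8 Enzo-labelled (replicates 1 and 2) and 0.108 to 0.201 on the 4 Ambion-labelled (replicate 3) arrays of the other groups. Values with labelling read from this ratio are called actin-based, and they address labelling alone. Whatever set Xist apart coincided with the anti-IgM+CpG group. It cannot be told from the combined stimulus in any comparison with these arrays, nor in the non-additivity. Markers of other cells were also present. The sum of 12 myeloid and dendritic cell markers was 255000 in media replicate 3, 126000 and 126100 in the other media arrays and 53350 to 103200 with anti-IgM, CpG or PL2-3. It was 152000 in anti-IgM+CpG replicate 1 and 17400 and 31820 in the other arrays of that group. The sum of 4 erythroid markers (of 6 listed) was 169200 in media replicate 3, 100800 and 98190 in the other media arrays, 119300 in anti-IgM+CpG replicate 1 and 37200 to 80610 in the other stimulated arrays. S100a8, a neutrophil gene, reached 89510 and Alas2, an erythroid gene, 65770, both in media replicate 3. The part of these cells in the receptor results was not tested, and values without media replicate 3 are given where they change a call or a size. Of the B cell markers, Ms4a1, which encodes CD20, lay at or above the array median on all 15 arrays at 9446 to 44640. The summed signal of 6 B cell markers (of 7 listed) was 195300 to 261800 in media and 45210 to 100200 in the stimulated groups. Of the T cell markers, Cd2 and Cd8a lay at or above the array median on all 15 arrays and Cd5 on 11. Cd3e and Cd247 did so on 9, Cd3g and Lat on 8, Cd3d on 7 and Cd4 on 4. The sum of these 9 markers was 10530 to 13260 in media and 2625 to 6225 in the stimulated groups. T cells also express Ccr7, Cxcr3, Cxcr4, S1pr1 and S1pr4, and the part of this shift in the results on those genes was not tested.

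The encoded proteins are G protein-coupled receptors that read gradients of chemokines or lipids. CXCR5 brings B cells into follicles, CCR7 and the oxysterol receptor GPR183 draw activated B cells toward the T cell zone and the follicle edge, and S1PR1 directs exit into blood and lymph. CXCR4 serves retention in bone marrow and sorting within germinal centres, CCR6 and CXCR3 serve homing to epithelia and to inflamed tissue, and the cannabinoid receptor CNR2 helps hold B cells in the marginal zone.

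Upstream sequences are shown for Ccr6 and Cnr2 because their windows held the octamer, the motif bound by the Oct proteins together with the B cell coactivator Pou2af1, whose own signal fell with every stimulus (values below). Cnr2 fell with every stimulus too, whereas Ccr6 was not called with anti-IgM (0.47 ± 0.33) or PL2-3 (-0.88 ± 0.33). The RefSeq promoter table (GRCm38.p6) had 8 windows for 6 of the genes, and none was listed for Ccr7, Cxcr5 and S1pr1. In the 250 bases before each start, ATTTGCAT on either strand was found in 2 of the 8 windows and in 526 of 32851 windows of all genes, or 1.6%. The windows, on the plus strand of the genome at chr17:8235793-8236042 (Ccr6) and chr4:135894939-135895188 (Cnr2), are written 5' to 3' with the octamer in capitals:
Ccr6: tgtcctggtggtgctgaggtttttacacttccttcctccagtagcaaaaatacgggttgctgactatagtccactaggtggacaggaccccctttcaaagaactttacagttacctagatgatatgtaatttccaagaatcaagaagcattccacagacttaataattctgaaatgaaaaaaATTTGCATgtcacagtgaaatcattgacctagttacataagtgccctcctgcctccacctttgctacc
Cnr2: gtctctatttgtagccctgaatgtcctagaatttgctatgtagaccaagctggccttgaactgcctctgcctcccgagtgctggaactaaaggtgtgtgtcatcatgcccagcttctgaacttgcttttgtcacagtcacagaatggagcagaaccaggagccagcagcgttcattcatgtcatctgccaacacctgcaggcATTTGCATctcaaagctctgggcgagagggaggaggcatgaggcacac
The octamer began 68 bases before the start of Ccr6 and 48 bases before that of Cnr2, on the strand of the gene. A second window of each gene had no match. The KLF core CACCC was found on either strand in the windows of Cxcr4 (219 bases before the start) and S1pr4 (107 bases) and in 52% of all windows. The motifs CGGAAG (ETS, 13.6% of all windows), GTAAACA (FOXO, 3.17%) and GGGNNTTTCC (kappaB, 1.41%) were in 0 of the 8 windows. A match describes these letters and shows no binding, and its relation to the receptor signals was not tested. The motifs were chosen with the expression results known.

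Against media, most of the receptor genes were lower after each stimulus, Cnr2, S1pr4 and Cxcr3 in all 4 groups, and Ccr7 rose in the 3 groups given CpG or PL2-3. With anti-IgM, 1 of the 9 rose and 5 fell, where limma called 19.5% of all genes (10.1% higher and 9.32% lower). With CpG, 1 rose and 5 fell, against 30.1% of all genes called (13.1% higher, 16.9% lower). With PL2-3, 1 rose and 5 fell, against 25.9% (12.4% higher, 13.5% lower). With anti-IgM+CpG, 1 rose and 6 fell, against 41.9% (17.2% higher, 24.8% lower), and with actin-based labelling 8 of the 9 were called against 32.9%. The median change of the 9 was -0.70, -1.95, -1.38 and -2.26 in this order, and that of all genes -0.13, -0.21, -0.10 and -0.29. The ranges of the arrays did not overlap with those of media for 5, 7, 6 and 7 of the 9, against 30.8%, 40.6%, 33.9% and 50.3% of all genes. Among all genes called, the share that was higher depended on the scaling: it was 52.1%, 43.7%, 47.8% and 40.9% with the deposited values and 77.1%, 74.6%, 64.7% and 79.2% with the arrays shifted to the same median, which moved the median of all genes to 0.12, 0.15, 0.09 and 0.30. The split of the 9 genes was then 1 up and 4 down, 2 and 5, 1 and 5, and 3 and 5. Of the 13160 genes 2123, 3380, 2724 and 5072 were called after this shift. Without anti-IgM replicate 3 only 3 of the 9 were called with anti-IgM, and without a labelling term only 3 with PL2-3. All genes called were then 1655 and 2615 of 13160, against 2561 and 3415 in the main fit.

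**Figure D1:**
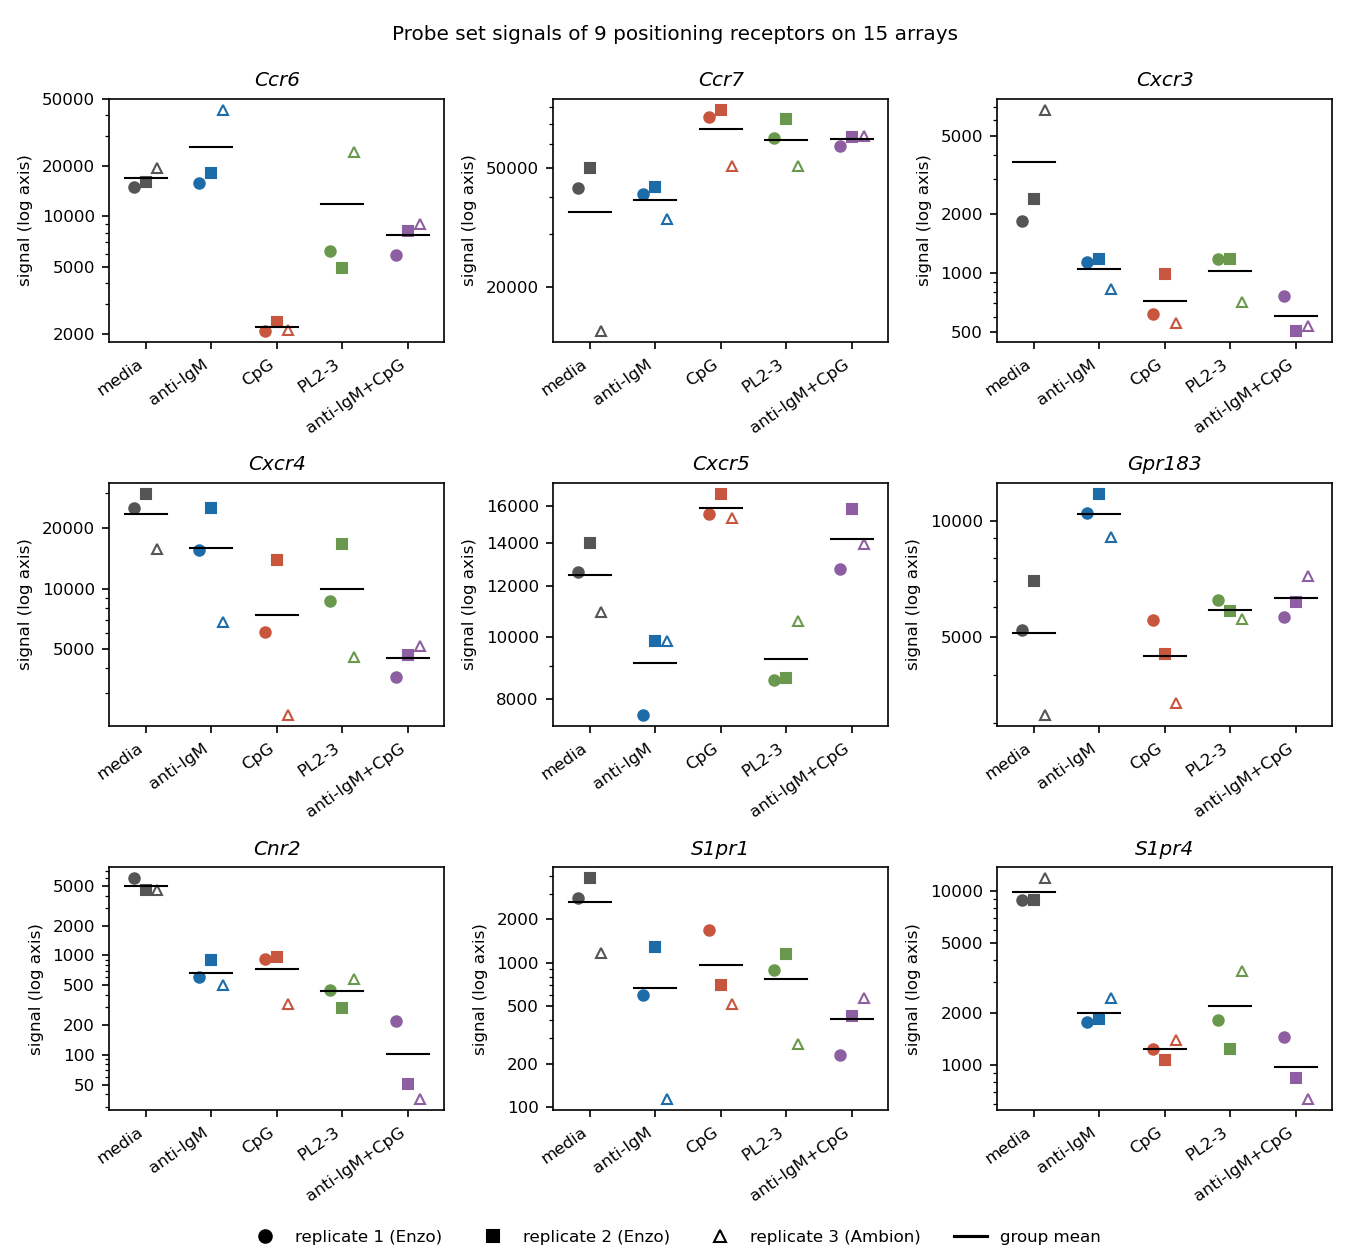
MAS5 signal of each receptor gene (brightest probe set) on the 15 arrays, on a log axis, by group. Symbols mark the replicate and its labelling kit and lines the group mean. All media values of Cnr2, S1pr4 and Cxcr3 lie above all values of the 4 stimulated groups.

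Ccr7 (probe set 1423466_at), the receptor for CCL19 and CCL21, gave media signals of 42698, 49761 and 14267. With CpG it gave 73680, 78144 and 50698, with PL2-3 62880, 72451 and 50830, and with anti-IgM+CpG 59274, 63474 and 63647. Each array of these 3 groups lay above every media array, and media replicate 3 was the lowest of all 15. Ccr7 rose by 1.09 ± 0.25 with CpG (limma adjusted p = 0.00376), 0.98 ± 0.25 with PL2-3 (0.0087) and 0.99 ± 0.25 with anti-IgM+CpG (0.00488). Without media replicate 3 the rises were 0.63 (0.0115), 0.52 (0.0368) and 0.53 (0.0197), and the actin-based rise with anti-IgM+CpG was 1.49 (0.000165). The call with PL2-3 ended without a labelling term (0.0547), and that with anti-IgM+CpG on the Enzo arrays alone (0.41, 0.0657) and with only the compared groups in the fit (0.0523). The anti-IgM signals of 40842, 43009 and 33589 overlapped with media, at a change of 0.32 ± 0.25 (0.424) that became -0.14 without media replicate 3. In the order of levels, CpG, anti-IgM+CpG, PL2-3, anti-IgM and media, no neighbours differed past the threshold.

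Cxcr5 (probe set 1422003_at), the follicular receptor for CXCL13, stayed within 0.46 log2 units of media in every group with the deposited scaling. Its signals were 12605, 13974 and 10924 in media, 7565, 9864 and 9873 with anti-IgM and 8571, 8623 and 10570 with PL2-3. The CpG arrays gave 15547, 16685 and 15322, above every media array, and the anti-IgM+CpG arrays 12751, 15833 and 13947, overlapping with media. Cxcr5 fell with anti-IgM, at -0.46 ± 0.16 (limma adjusted p = 0.0498), a call that ended in 18 of 29 alternative fits. With PL2-3 the change was -0.43 ± 0.16 (0.0529). It was called in 11 of 29 alternative fits, among them the replicate number as a block (0.0411) and the fit without media replicate 3 (-0.56, 0.0284). With CpG the change was 0.35 ± 0.16 (0.106) and with anti-IgM+CpG 0.18 ± 0.16 (0.364, actin-based 0.16). With arrays shifted to the same median these became rises of 0.71 (0.0255) and 0.78 (0.00975), and the change with anti-IgM was -0.21 (0.6). None of the neighbours in its order of levels, CpG, anti-IgM+CpG, media, PL2-3 and anti-IgM, differed past the threshold.

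Ccr6 (probe set 1450357_a_at), the receptor for CCL20, showed the largest difference between stimuli of the 9 genes, between anti-IgM and CpG. Its signal was 15041, 16020 and 19471 in media and 15765, 18194 and 43246 with anti-IgM. With CpG it was 2081, 2343 and 2117, the lowest 3 of the 15 arrays. Ccr6 fell with CpG, at -2.90 ± 0.33 (limma adjusted p = 1.44e-05), a 7.47-fold difference. With anti-IgM+CpG it gave 5919, 8217 and 9055, all below media, and fell at -1.13 ± 0.33 (0.0128). This change was -1.75 with actin-based labelling (0.00135) and -0.54, not called (0.301), with arrays shifted to the same median. The call also ended without media replicate 2 (0.0502), without anti-IgM+CpG replicate 3 (0.0574) and without a labelling term (0.0705). The PL2-3 signals were 6214 and 4911 on the Enzo arrays and 24315 on the Ambion array, which is replicate 3. The change was -1.48 on the former and 0.32 on the latter (-0.88 ± 0.33 and 0.0642 for all, called in 5 of 29 alternative fits). With 1 Ambion array per group, kit and replicate cannot be told apart here. The change with anti-IgM was 0.47 ± 0.33 (0.375). In the order anti-IgM, media, PL2-3, anti-IgM+CpG and CpG, only the last neighbours differed past the threshold, by 1.77 ± 0.33 (0.00576, actin-based 1.15 and 0.134).

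Cxcr4 (probe set 1448710_at), the receptor for CXCL12, gave 25285, 29730 and 15717 in media and 3628, 4689 and 5175 with anti-IgM+CpG. With CpG it gave 6069, 13873 and 2343, with PL2-3 8648, 16765 and 4559 and with anti-IgM 15650, 25342 and 6846. In every group but anti-IgM+CpG the Ambion array was the lowest and replicate 2 the highest. Cxcr4 fell with anti-IgM+CpG (-2.34 ± 0.40, limma adjusted p = 0.000256, actin-based -1.39 and 0.00482), CpG (-1.95 ± 0.40, 0.00168) and PL2-3 (-1.38 ± 0.40, 0.0184). The PL2-3 range overlapped with media, and the call ended without media replicate 3 (-1.27, 0.0753), without PL2-3 replicate 1 (0.0839) or 3 (0.0787), with the Enzo arrays only (0.0534) and without a labelling term (0.109). With anti-IgM the change was -0.70 ± 0.40 (0.253). No neighbours in the order media, anti-IgM, PL2-3, CpG and anti-IgM+CpG differed past the threshold.

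Cxcr3 (probe set 1449925_at), the receptor for the interferon-induced chemokines CXCL9, CXCL10 and CXCL11, was higher in media than on any stimulated array. Media gave 1849, 2379 and 6798, the last in replicate 3. Anti-IgM gave 1143, 1184 and 826, CpG 615, 991 and 557, PL2-3 1177, 1174 and 712, and anti-IgM+CpG 764, 508 and 534. Cxcr3 fell in every stimulated group, at -1.52 ± 0.39 with anti-IgM (limma adjusted p = 0.0115), -2.04 ± 0.39 with CpG (0.000891), -1.57 ± 0.39 with PL2-3 (0.00669) and -2.26 ± 0.39 with anti-IgM+CpG (0.000254, actin-based -2.27). NK cells express Cxcr3 too, and the sum of 6 NK cell markers (of 7 listed) was 8089 to 10550 in media and 2292 to 8464 in the stimulated groups, whose part in these falls was not tested. The changes were smaller on the Enzo arrays (-0.81, -1.34, -0.80 and -1.64) than on the Ambion arrays (-2.93, -3.44, -3.13 and -3.50). Without media replicate 3 the changes were -0.82 (0.0622, not called), -1.34 (0.00239), -0.87 (0.0356) and -1.56 (0.000487). The anti-IgM call also ended without anti-IgM replicate 3 (0.0669) and on the Enzo arrays alone (0.12), as did the PL2-3 call on the Enzo arrays (0.0969). In the order media, anti-IgM, PL2-3, CpG and anti-IgM+CpG only the first neighbours differed past the threshold.

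Gpr183, the receptor for 7α,25-dihydroxycholesterol, had its highest signals with anti-IgM. Its brighter probe set (1437356_at) gave 10465, 11718 and 9063 with anti-IgM, above all 12 other arrays. Media gave 5205, 6989 and 3151, CpG 5540, 4515 and 3376, PL2-3 6247, 5856 and 5560, and anti-IgM+CpG 5634, 6151 and 7196. Gpr183 rose by 1.08 ± 0.21 with anti-IgM on this probe set (limma adjusted p = 0.00193), and by 0.83 without media replicate 3 (0.0146). The changes with CpG (-0.15 ± 0.21, 0.64), PL2-3 (0.27 ± 0.21, 0.392) and anti-IgM+CpG (0.37 ± 0.21, 0.173) did not pass. The last was called with actin-based labelling (0.68, 0.0134) and after the median shift (0.96, 0.00311), and was at -0.03 on the Enzo arrays and -0.14 as the mean of both probe sets. The other probe set (1457691_at) gave 5661, 4360 and 4481 with anti-IgM against 4870, 5387 and 3055 in media, overlapping ranges at a change of 0.15 ± 0.26 (0.763, over 23059 probe sets). The rise with anti-IgM thus rests on 1 of 2 probe sets, and their mean gave 0.62 (0.0696). The second probe set was at -0.64 ± 0.26 with anti-IgM+CpG (0.0595), opposite in sign to the first. By the brighter probe set, anti-IgM stood above the next group, anti-IgM+CpG, which was lower at -0.71 ± 0.21 (0.045, actin-based -0.40 and 0.359, with the call lost in 19 of 28 alternative fits), and the groups anti-IgM+CpG, PL2-3, media and CpG followed without differences past the threshold between neighbours.

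Cnr2 (probe set 1450476_at), the cannabinoid receptor that binds 2-arachidonoylglycerol, had the largest fall of the 9 genes with anti-IgM, PL2-3 and anti-IgM+CpG, while with CpG Ccr6 and S1pr4 fell slightly more. Media gave 6008, 4508 and 4541. The signals were 612, 899 and 508 with anti-IgM, 917, 961 and 328 with CpG, 453, 297 and 581 with PL2-3, and 221, 50.6 and 35.8 with anti-IgM+CpG. All 12 stimulated arrays lay below all media arrays. Cnr2 fell in every stimulated group, at -2.79 ± 0.38 with anti-IgM (limma adjusted p = 0.000158), -2.76 ± 0.38 with CpG (6.72e-05), -3.32 ± 0.38 with PL2-3 (2.25e-05) and -4.98 ± 0.38 with anti-IgM+CpG (2.68e-07, actin-based -4.74). The last group lay under the array median on all 3 arrays, and 2 of its signals were below the pseudocount, so that the pseudocount set the size of this change: it was -3.95 with 245 and -6.08 without one. Without media replicate 3 the 4 changes were -2.68, -2.65, -3.21 and -4.87. The anti-IgM+CpG level was below that of PL2-3, its neighbour in the order media, CpG, anti-IgM, PL2-3 and anti-IgM+CpG, by 1.66 ± 0.38 (0.0393, actin-based 1.41 and 0.205; the call ended in 17 of 27 alternative fits), and media stood above CpG. The other neighbours did not differ past the threshold.

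S1pr4 (probe set 1451024_at), a lymphocyte receptor for sphingosine 1-phosphate, gave 8892, 8835 and 11854 in media. It gave 1767, 1836 and 2423 with anti-IgM, 1235, 1079 and 1404 with CpG, 1829, 1241 and 3464 with PL2-3, and 1463, 844 and 641 with anti-IgM+CpG. The groups did not overlap with media. S1pr4 fell at -2.25 ± 0.30 with anti-IgM (limma adjusted p = 0.000129), -2.91 ± 0.30 with CpG (5.62e-06), -2.25 ± 0.30 with PL2-3 (6.83e-05) and -3.29 ± 0.30 with anti-IgM+CpG (8.99e-07, actin-based -3.67). Within kits the changes were -2.25, -2.86, -2.50 and -2.91 on the Enzo arrays and -2.26, -3.01, -1.75 and -4.06 on the Ambion arrays. Of the neighbours in the order media, PL2-3, anti-IgM, CpG and anti-IgM+CpG, only the first differed past the threshold.

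S1pr1 (probe set 1423571_at), the egress receptor for the same lipid, had the largest SE of the 9 genes. Media gave 2827, 3862 and 1169, anti-IgM 597, 1295 and 113, CpG 1689, 702 and 519, PL2-3 889, 1155 and 275, and anti-IgM+CpG 228, 429 and 567. The anti-IgM and CpG ranges overlapped with media. S1pr1 fell with anti-IgM (-2.12 ± 0.51, limma adjusted p = 0.00758), PL2-3 (-1.70 ± 0.51, 0.0207) and anti-IgM+CpG (-2.39 ± 0.51, 0.00137, actin-based -1.33 and 0.0253), and with CpG the change was -1.37 ± 0.51 (0.0513). This change was called in 10 of 28 alternative fits, among them the actin-based labelling (0.0112) and the Enzo arrays alone. The anti-IgM call ended without anti-IgM replicate 3 (-1.62, 0.0615), and the PL2-3 call without media replicate 2 (0.0761), PL2-3 replicate 1 (0.057) or 3 (0.0912) and without a labelling term (0.0894). No neighbours in the order media, CpG, PL2-3, anti-IgM and anti-IgM+CpG differed past the threshold.

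**Figure D2:**
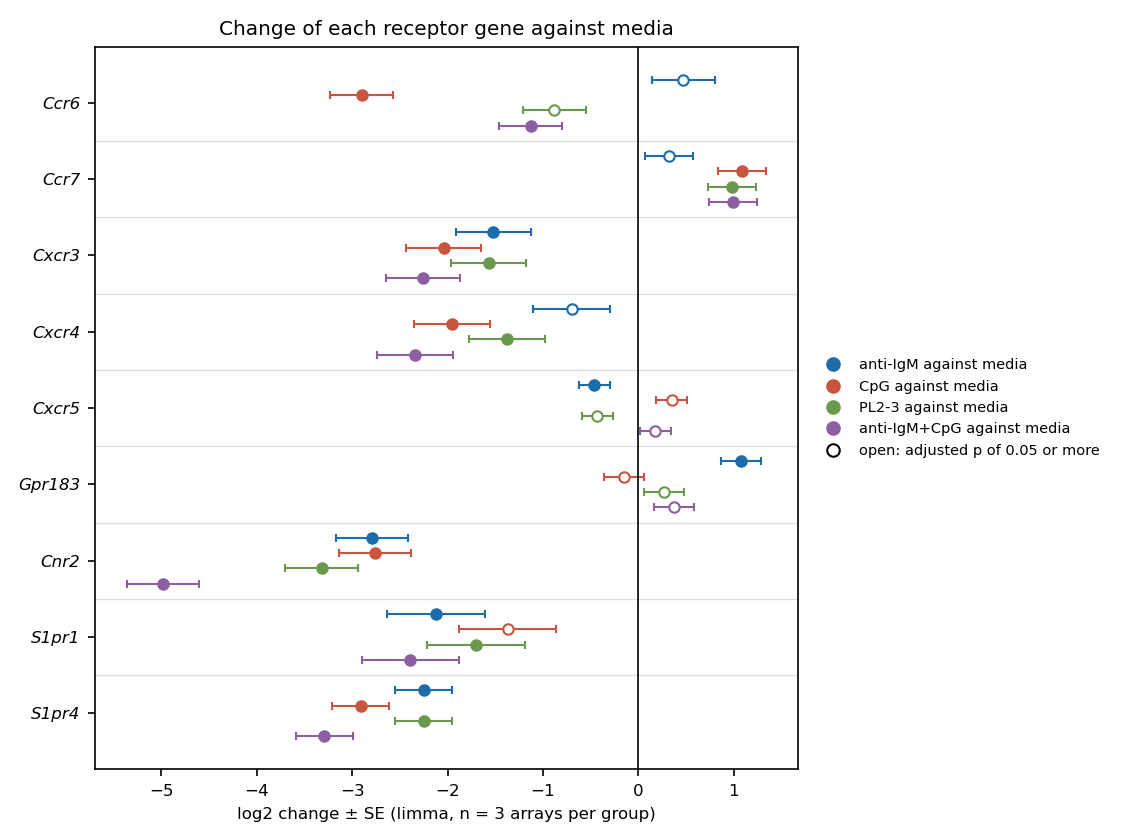
Log2 change of each receptor gene against media with its SE (limma, n = 3 arrays per group). Filled points have an adjusted p under 0.05 and open points do not. Cnr2 lies between -4.98 and -2.76 and Ccr7 between 0.32 and 1.09.

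**Figure D3:**
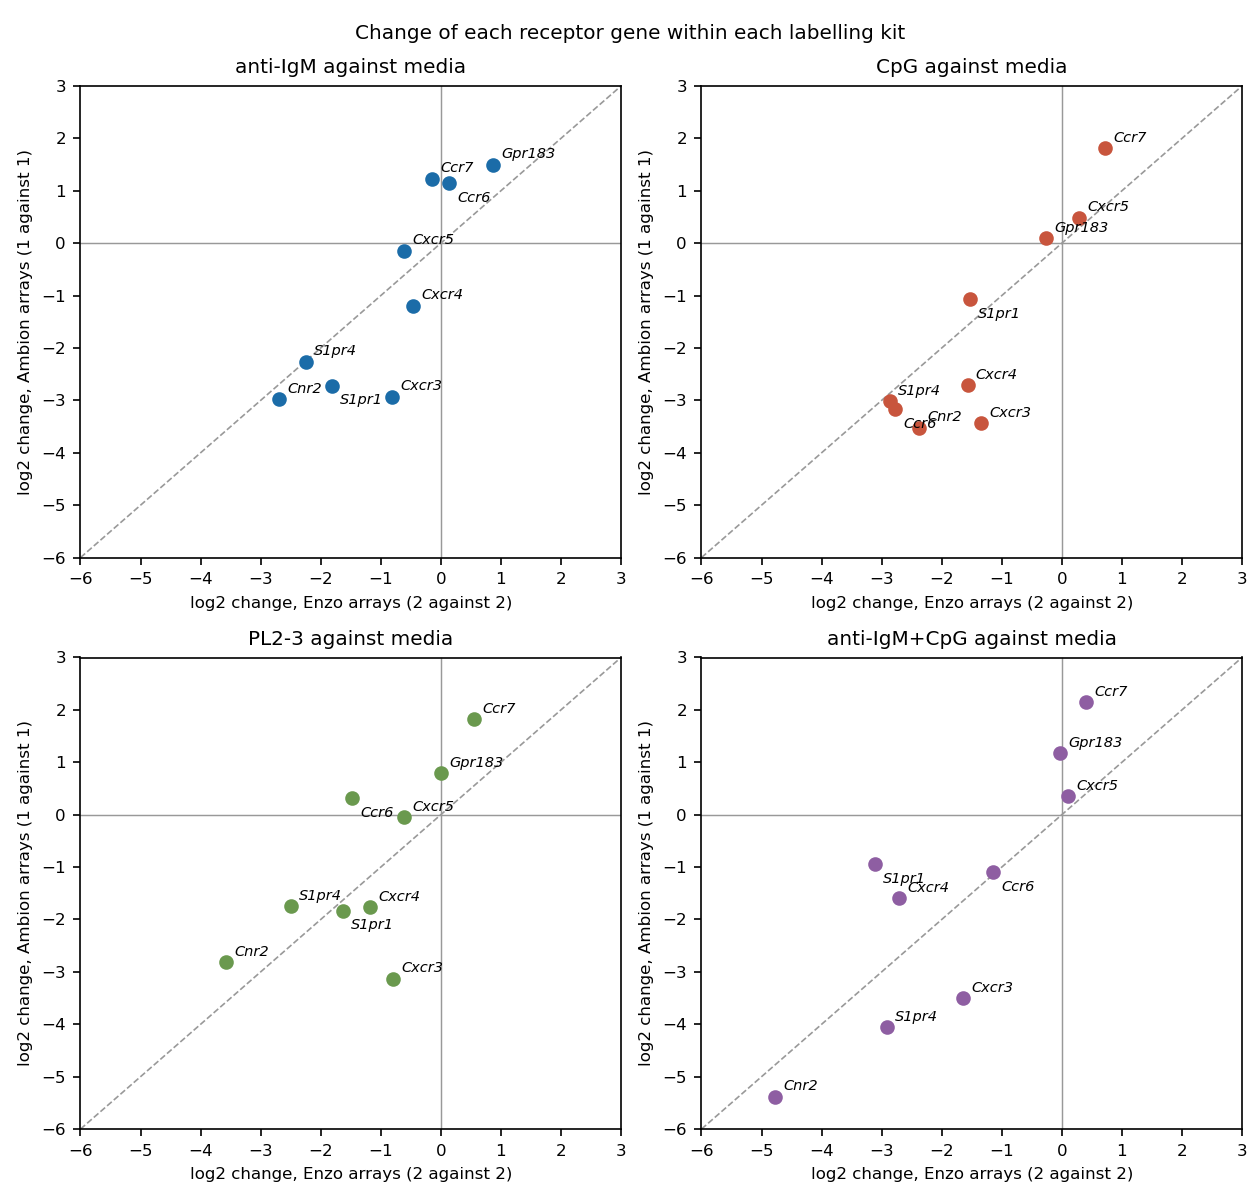
Log2 change against media on the Ambion arrays (1 against 1, vertical) plotted against the change on the Enzo arrays (2 against 2, horizontal), 1 panel per stimulus. The dashed line marks equal change. Cxcr3 lies far below it in all 4 panels, and Ccr6 with PL2-3 is at -1.48 and 0.32. All Ambion changes share 1 media array, replicate 3, and Ambion is replicate 3 in every group, so kit and replicate cannot be told apart.

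The stimuli were then compared with each other. CpG against anti-IgM asks how the TLR9 ligand differs from receptor crosslinking: 3 of the 9 genes were called, where limma called 6.41% of all genes. Ccr6 was 10.3-fold lower with CpG (-3.37 ± 0.33, 6.33e-06) and Gpr183 lower at -1.22 ± 0.21 (0.0014), while Cxcr5 was higher by 0.81 ± 0.16 (0.00372), with no overlap of the ranges in any of the 3. Gpr183 is given here by its brighter probe set, and the other was at -0.66 ± 0.26 (0.219 over 23059 probe sets), not called. The ranges of 5 of the 9 did not overlap, against 18.7% of all genes. Cxcr4 was at -1.25 ± 0.40 (0.0843, and called at 0.0432 with the replicate number as a block) and Ccr7 at 0.77 ± 0.25 (0.0884, and called at 0.00274 without media replicate 3). Without the anti-IgM+CpG arrays in the fit, or with actin-based labelling, 5 of the 9 were called (1149 of 13160 genes in the former and 8.06% of all genes in the latter).

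PL2-3, which engages the receptor and brings DNA to TLR9, differed from CpG in Ccr6, higher by 2.02 ± 0.33 (limma adjusted p = 0.00206), and in Cxcr5, lower at -0.78 ± 0.16 (0.00909), 2 of the 9 where 3.2% of all genes were called. The Cxcr5 call ended without PL2-3 replicate 1 (0.0587) or 2 (0.0512). From anti-IgM, PL2-3 differed in 0 of the 9 (limma, 0.691% of all genes), of which 3 had an unadjusted p under 0.05: Ccr6 at -1.34 ± 0.33 (adjusted 0.0989), Gpr183 at -0.81 ± 0.21 (0.125, and 0.0361 actin-based, where 0.935% of all genes were called) and Ccr7 at 0.66 ± 0.25 (0.504). The other Gpr183 probe set was at -0.41 ± 0.26 (0.946). Without media replicate 3 Gpr183 (0.0466) and Ccr7 (0.0406) were called. A missed threshold does not show that both stimuli act alike.

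**Figure D4:**
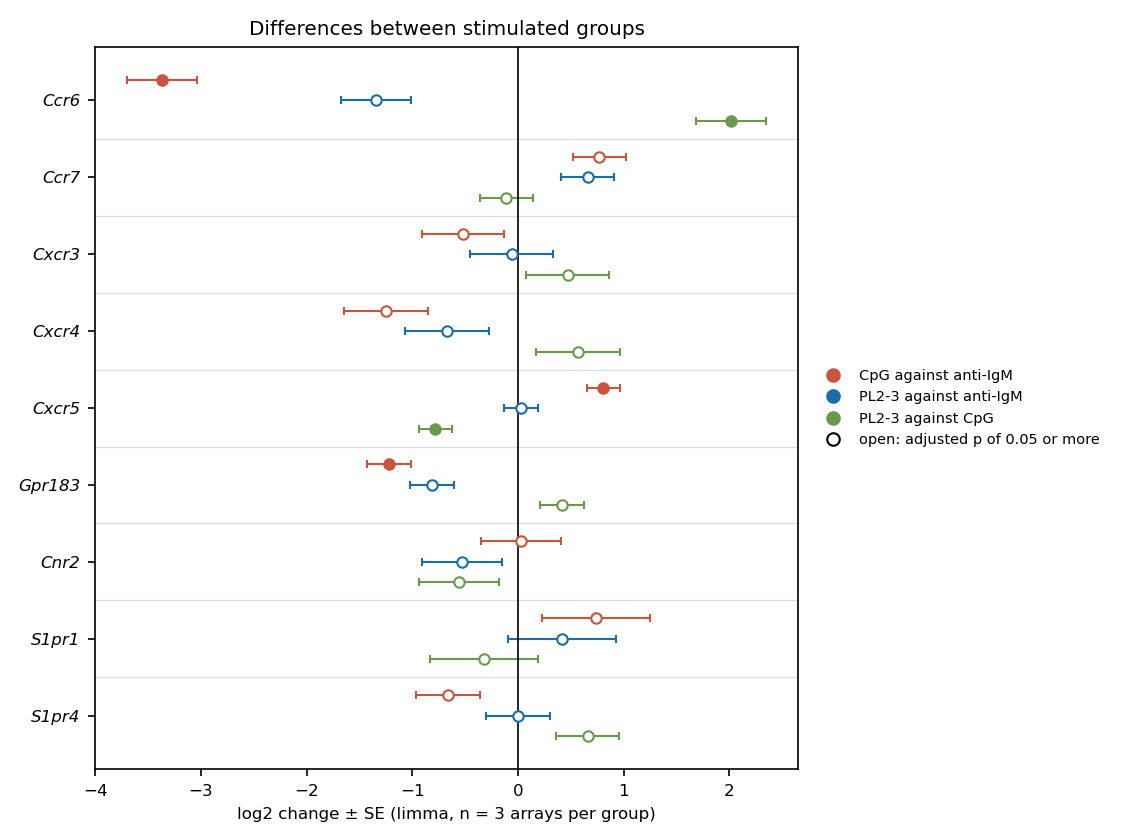
Log2 difference of each receptor gene between stimulated groups with its SE (limma, n = 3 arrays per group). Filled points have an adjusted p under 0.05. Ccr6 is at -3.37 for CpG against anti-IgM and 2.02 for PL2-3 against CpG.

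The combined stimulus was set against each agent alone and against PL2-3. What set its arrays apart in Xist cannot be told from the stimulus in these comparisons. Against anti-IgM, 6 of the 9 were called (9.07% of all genes), and 5 of the 9 with actin-based labelling (3.85%). Ccr6 was lower at -1.60 ± 0.33 (limma adjusted p = 0.00862, actin-based -2.22) and Cnr2 at -2.19 ± 0.38 (0.00304, actin-based -1.95). Cxcr4 was lower at -1.63 ± 0.40 (0.0205), which actin-based labelling did not call (-0.69, 0.359), S1pr4 at -1.04 ± 0.30 (0.042, actin-based -1.42) and Gpr183 at the -0.71 given above. The S1pr4 call was lost in 18 of 28 alternative fits, among them the median shift (-0.69, 0.208), and the Cxcr4 call in 7 of 28. Cxcr5 was higher by 0.64 ± 0.16 (0.0193, actin-based 0.0488). Ccr7, at 0.67 ± 0.25 (0.105), was called with actin-based labelling (1.17, 0.0109), after the median shift (1.02, 0.0289) and without media replicate 3 (0.00845). Only 2 were called without anti-IgM+CpG replicate 2 and 3 without anti-IgM replicate 1 or 2. All genes called in these fits were 497, 585 and 409 of 13160, against 1194 in the main fit. Against CpG, 2 of the 9 were called (4.53% of all genes): Ccr6, as given above, and Cnr2, lower at -2.22 ± 0.38 (0.00309, actin-based -1.98 and 0.021). With actin-based labelling the 2 called, against 2.63% of all genes, were Cnr2 and Gpr183 (0.83, 0.0316), the latter on its brighter probe set, while the other was at -0.14 ± 0.26 with the labelling kit as given. Against PL2-3, Cnr2 was the 1 gene called (1.84% of all genes), Cxcr5 was at -0.61 ± 0.16 (0.0544, called without media replicate 3 at 0.0379), and with actin-based labelling S1pr4 was the 1 called (0.0302, 0.676% of all genes). Without anti-IgM+CpG replicate 3, 4 of the 9 were called, but so were 1667 of all 13160 genes, against 242 in the main fit.

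Non-additivity, how far the change with anti-IgM+CpG departed from both single changes added up, was called for 1 of the 9 genes (2.5% of all genes, and 2.57% actin-based). S1pr4 was 1.87 ± 0.43 above the sum (limma adjusted p = 0.0305, actin-based 1.5 and 0.0483): anti-IgM and CpG alone gave -2.25 and -2.91, and both together -3.29. The call ended when any 1 of 10 arrays was left out. Ccr6 was at 1.30 ± 0.47 (0.152) and Cxcr3 at 1.30 ± 0.55 (0.217).

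Genes that act with these receptors were read from 5 lists. Their counts stand against 19.5%, 30.1%, 25.9% and 41.9% of all genes called with anti-IgM, CpG, PL2-3 and anti-IgM+CpG. Of the ligands and ligand-making enzymes, 13 of 19 were tested, and 1 rose and 0 fell with anti-IgM, 2 and 1 with CpG, 0 and 0 with PL2-3, and 2 and 3 with anti-IgM+CpG (2 and 1 actin-based). These 1, 3, 0 and 5 called genes of 13 were below the share of all genes. Cxcl10, a ligand of CXCR3, rose by 3.48 ± 0.50 with CpG (limma adjusted p = 9.28e-05) and 2.88 ± 0.50 with anti-IgM+CpG (0.000292, actin-based 3.26). Cxcl11, another, rose by 1.85 ± 0.57 with anti-IgM (0.0307), 3.18 ± 0.57 with CpG (0.000533) and 2.73 ± 0.57 with anti-IgM+CpG (0.00114, actin-based 3.06). Its media signal was 60.7 ± 32.8 (SD), under the pseudocount. Hsd3b7, an enzyme that inactivates the GPR183 ligand, fell with CpG (-0.86 ± 0.27, 0.0252) and with anti-IgM+CpG (-0.82 ± 0.27, 0.0242, but 0.0575 actin-based).

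Of the other chemokine and lipid receptors 13 of 21 were tested. The counts were 1 up and 3 down with anti-IgM, 0 and 3 with CpG, 0 and 3 with PL2-3 and 0 and 7 with anti-IgM+CpG (0 and 5 actin-based). The 3 of 13 called with CpG and with PL2-3 were below the share of all genes. S1pr3, the sphingosine 1-phosphate receptor of marginal zone B cells, rose by 1.86 ± 0.21 with anti-IgM (limma adjusted p = 3.79e-05) and fell with CpG (-2.25 ± 0.21, 2.49e-06), from 2901 ± 399 (SD) in media to 10690 ± 674 and 562 ± 167. P2ry10, a receptor for lysophospholipids, fell in all 4 groups (-1.37, -1.29, -2.0 and -2.80 with anti-IgM, CpG, PL2-3 and the combination, SE 0.16, actin-based -2.64 for the last). Gpr18 fell with anti-IgM (-1.72 ± 0.16, 8.57e-06) and with PL2-3 (-1.14 ± 0.16, 1e-04). Ccr2 (-2.60 ± 0.46) and Ccr9 (-2.05 ± 0.62) fell with anti-IgM+CpG, but not with actin-based labelling (0.117 and 0.306).

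Among G proteins and the regulators that switch receptors off, 19 of 20 were tested: 3 rose and 7 fell with anti-IgM, 0 and 13 with CpG, 2 and 9 with PL2-3, and 2 and 12 with anti-IgM+CpG (2 and 11 actin-based), where 9.32%, 16.9%, 13.5% and 24.8% of all genes were lower. Rgs16 and Rgs1, which shorten G protein signals, rose by 2.36 ± 0.34 (limma adjusted p = 0.000216) and 1.51 ± 0.27 (0.000968) with anti-IgM. Both also rose with PL2-3 (1.65, 0.00189 and 0.84, 0.0284). With anti-IgM+CpG they rose by 1.44 (0.00301, actin-based 1.73) and 1.18 (0.00226, actin-based 1.82), where 1 of 3 Rgs16 probe sets went the other way. Rgs2 fell with CpG (-3.01 ± 0.23, 6.35e-07), from 23570 ± 5962 to 2997 ± 1237 (SD), and with anti-IgM+CpG (-2.18 ± 0.23, 3.52e-06, actin-based -1.75). Rgs14 fell in all 4 groups (-1.46, -2.34, -1.78 and -2.37, SE 0.27, actin-based -2.66 for the last), and the arrestin gene Arrb1 fell with anti-IgM, PL2-3 and the combination (-1.5, -1.78 and -2.17, SE 0.38, actin-based -2.32 for the last).

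All 17 listed genes of the migration machinery were tested, of which 1 rose and 9 fell with anti-IgM, 1 and 10 with CpG, 1 and 10 with PL2-3 and 1 and 13 with anti-IgM+CpG (1 and 13 actin-based), against 9.32%, 16.9%, 13.5% and 24.8% of all genes lower. The gene that rose was in each case Rap1b, a GTPase that activates integrins (0.56, 0.75, 0.80 and 0.93, SE 0.12, actin-based 0.95 for the last). Rasgrp2, the exchange factor for Rap1, fell in all 4 groups (-3.04, -3.29, -2.66 and -3.99, SE 0.33, actin-based -4.23 for the last), the largest falls of this list in each comparison. Coro1a, an actin regulator, fell with anti-IgM (-1.40 ± 0.27, limma adjusted p = 0.00197) and the combination (-2.43 ± 0.27, 5.4e-06, actin-based -2.57).

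Of 14 regulators of these receptors 13 were tested: 2 rose and 6 fell with anti-IgM, 3 and 5 with CpG, 2 and 6 with PL2-3, and 4 and 7 with the combination (4 and 7 actin-based), against 19.5%, 30.1%, 25.9% and 41.9% of all genes called in either direction. Klf2, the transcription factor that drives S1pr1, fell in all 4 groups (-1.5, -0.97, -1.30 and -3.24, SE 0.33, actin-based -2.79 for the last). Cd69, which takes S1PR1 off the surface, rose by 1.29 ± 0.44 with anti-IgM (limma adjusted p = 0.0492), 1.39 ± 0.44 with CpG (0.0246) and 1.31 ± 0.44 with the combination (0.0245, actin-based 1.81). Tbx21, which encodes T-bet, a driver of Cxcr3 in lymphocytes, rose by 2.88 ± 0.47 with CpG (0.000288), 2.26 ± 0.47 with PL2-3 (0.00219) and 4.02 ± 0.47 with the combination (8.53e-06, actin-based 4.21), while Cxcr3 fell in these groups. Pou2af1 (-1.80, -2.60, -2.02 and -1.93, SE 0.17, actin-based -2.02 for the last) and Ets1 (-2.05, -2.42, -2.94 and -3.93, SE 0.35, actin-based -4.01 for the last), factors of B cell identity and quiescence, fell in all 4 groups.

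Over the 15 arrays, which share groups and labelling kits, the genes most like each receptor by Pearson's r of log2 values were Hhex (0.982), Pold4 and Ctdsp2 for S1pr4, Ssh2 (0.978), Rassf2 and Dgka for Cnr2, and Ppl (0.951), Ubap1 and Fmnl1 for Cxcr4. They were Pxdc1 (0.946), Vav3 and Tubb2a for Ccr6, Pdcd2l (0.946), Rab34 and Rftn1 for Ccr7, and Git2 (0.944), Wbp1 and Isca1 for Cxcr3. For Gpr183 they were Cd86 (0.921), Fosl2 and Itprid2, for S1pr1 Dcc (0.914), Slc23a1 and Ppip5k1, and for Cxcr5 Alg1 (0.868), Washc1 and Map2k1. Among the 36 pairs of receptors the highest r were 0.89 for Cnr2 with S1pr4 and 0.83 for Cxcr3 with S1pr4, and the lowest were -0.74 for Ccr7 with Cxcr3 and -0.71 for Ccr7 with S1pr4.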

How the data were processed

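RNA of 15 AM-14 B cell samples was labelled with the Enzo kit (replicates 1 and 2 of each group) or the Ambion kit (replicate 3), per the labels. The deposited values give 1 linear intensity per probe set and array, made with MAS5 per the submitters' processing notes. The version, the target value and how the images were read are not given in the sources used here. Array medians were 263 to 514, and precision is set by how few arrays there are.

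Groups were taken from the sample titles. Of 45037 probe sets, 34945 had 1 gene symbol in the platform annotation, 932 several and 9160 none, and only the first were used. All 9 receptor genes matched the RefSeq gene table. Each gene was read from its brightest probe set, and the test took the 13160 genes that reached the median of an array on 3 or more arrays. The scale was log2(signal + 75.2), with the 20th percentile of all signals as pseudocount. limma 3.58.1 (R 4.3.3, with jsonlite 2.0.0; figures with Python 3.11.15 and matplotlib 3.10.9) fitted the 5 groups and the kit over all 15 arrays, with 9 residual degrees of freedom, eBayes with a trend and two-sided p-values adjusted by Benjamini-Hochberg over all genes of a comparison. The procedure was also run on simulated data with independent noise, the kit effect and changes planted in the CpG group alone. These data had no other likeness between arrays of equal number and no shift of the anti-IgM+CpG arrays. The run therefore does not bear on calls that depend on those.

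Named genes are the 9 receptors with all probe sets, their 3 most correlated genes, up to 3 called genes in each direction per list and comparison against media (not all are printed), and Xist and actin. The members, lists and motifs were chosen with earlier results of these data known. Outside the combined stimulus, deviations from the group means correlated above 0.1 in 18 of 18 pairs of equal replicate number (0.12 to 0.68). In pairs of unequal number 8 of 36 did. Of 12 equal-numbered pairs that included anti-IgM+CpG, 0 did. The kit follows the replicate number and was not taken out of these deviations, so pairing cannot be told from the kit here. The alternatives were no pseudocount or 245 (the 40th percentile), a filter on all 15 arrays or none, quantile normalization, a shift of each array to one median, no labelling term, the replicate block, the actin-based labelling, the Enzo arrays only, no trend, the compared groups only, the mean of probe sets and leaving out each array. A fit without the anti-IgM+CpG group was chosen after seeing the data.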

Additional observations from a re-analysis of the deposited data

Results flagged for a closer look

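S1pr4 had a called difference between the combined stimulus and the sum of the single ones: the change with anti-IgM+CpG was 1.87 ± 0.43 log2 units above the sum of the changes with anti-IgM and with CpG (limma adjusted p = 0.0305, n = 3 arrays per group). The difference depends on the anti-IgM+CpG arrays, whose Xist signals and actin ratios stood apart, and on the same media arrays as both single changes. It was 1.5 with actin-based labelling (0.0483). The call ended when any 1 of 10 arrays was left out, at adjusted p-values of 0.0507 to 0.0811.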

How the results depend on the processing

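Of the 25 member changes called against media, 671 of 711 alternative fits kept direction and call, 40 lost the call and 0 changed sign. Calls of Cnr2 and S1pr4 against media were kept in every fit that had a value. Cnr2 and S1pr1 had none under the filter on all 15 arrays. Of the 11 changes not called, 32 of 316 fits gained a call and 7 changed sign: Cxcr5 with anti-IgM+CpG was at -0.15 after quantile normalization, Ccr7 with anti-IgM at -0.14 on the Enzo arrays and without media replicate 3 (-0.14 to 0.57 over the arrays left out), Gpr183 with anti-IgM+CpG at -0.03 on the Enzo arrays and -0.14 as the mean of its probe sets, and Gpr183 with CpG at 0.21 after the median shift and 0.07 without media replicate 2 (-0.40 to 0.07 over the arrays left out). With actin-based labelling S1pr1 was at 0.05 in anti-IgM+CpG against CpG and at -0.37 in PL2-3 against anti-IgM+CpG. Another 34 member values, between stimulated groups or of the non-additivity, were called in no fit, and 16 of them changed sign in at least 1.

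The number of members called with each array left out was 3 to 6 with anti-IgM against media (3 without anti-IgM replicate 3), 6 to 7 with CpG, 4 to 7 with PL2-3 and 6 to 7 with anti-IgM+CpG. It was 3 to 5 for CpG against anti-IgM (5 without anti-IgM+CpG replicate 3), 0 to 2 for PL2-3 against anti-IgM (2 without media replicate 3, 1 without PL2-3 replicate 3 or anti-IgM+CpG replicate 3), 1 to 2 for PL2-3 against CpG, 2 to 7 and 2 to 3 for anti-IgM+CpG against anti-IgM and against CpG, 0 to 4 for PL2-3 against anti-IgM+CpG (4 without anti-IgM+CpG replicate 3) and 0 to 1 for non-additivity. All genes called moved too. For CpG against anti-IgM they were 1004 in the fit named (main fit 843). For PL2-3 against anti-IgM they were 116, 56 and 116 (main fit 91), and for PL2-3 against anti-IgM+CpG 1667 (main fit 242). Without a labelling term the counts were 3 for PL2-3 against media, 2 for anti-IgM+CpG against anti-IgM, 1 against CpG, and 0 for PL2-3 against anti-IgM+CpG and for non-additivity. All genes called were then 2615, 353, 220, 27 and 36, against 3415, 1194, 596, 242 and 329 in the main fit. With only the compared groups the members called were 6 for CpG and 3 for PL2-3 against anti-IgM, 2 and 1 for anti-IgM+CpG against anti-IgM and CpG, and 0 for PL2-3 against anti-IgM+CpG. All genes called were 1187, 218, 303, 191 and 24, against 843, 91, 1194, 596 and 242 in the main fit. Without a trend the members called were 2 for anti-IgM+CpG against anti-IgM, and 0 for PL2-3 against anti-IgM+CpG and for non-additivity (all genes 689, 78 and 24, main fit 1194, 242 and 329). PL2-3 against anti-IgM+CpG had 0 members called after quantile normalization, with a pseudocount of 245 and with no filter, and 2 on the Enzo arrays (all genes 86, 224, 157 and 1356, main fit 242). Non-additivity had 0 after the median shift and 2 on the Enzo arrays (all genes 32 and 393, main fit 329). PL2-3 against anti-IgM had 1 after quantile normalization, on the Enzo arrays, with actin-based labelling and without the anti-IgM+CpG group (all genes 100, 58, 123 and 164, main fit 91). CpG against anti-IgM had 5 without that group and with actin-based labelling (all genes 1149 and 1061, main fit 843). With the filter on all 15 arrays anti-IgM+CpG against CpG had 1 (603 of 8257 genes called, main fit 596 of 13160), as Cnr2 was not tested. Except for that value, the cause of these shifts was not tested.

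With the replicate block in place of the kit, PL2-3 against anti-IgM+CpG had 2 called members, where 280 of 13160 genes were called (main fit 242). Cxcr5 passed there (0.0446), and Gpr183 in anti-IgM+CpG against anti-IgM did not pass (0.051). The block changed no call of a member besides these and the values given for Cxcr5 and Cxcr4.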
